A study of Mus musculus with 2 samples.

Results

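Glycolysis and lactate production in the retina were examined through 10 genes, listed by symbol and looked up in a single-cell RNA expression matrix of mouse retina. All 10 were found among the 31053 genes of the matrix. They were Slc2a1 for glucose entry, Hk2, Aldoa, Aldoc, Pgk1, Eno1 and Pkm for the steps from glucose to pyruvate, Ldha and Ldhb for the exchange of pyruvate and lactate, and Nxnl1 for a secreted factor of rods. The symbol Aldoa stood for 2 gene identifiers in the matrix, and the second of them held no UMI.

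To ask how tethering of heterochromatin affects expression in rods, the study had electroporated retinas of newborn wild-type mice with the plasmid pCIG2, which carries an IRES2-EGFP reporter. The plasmid held the reporter alone (Control), the reporter with lamin A (Lmna), or the reporter with the lamin B receptor (Lbr). EGFP was thus not driven by a rod-specific promoter, and for the sequenced animals the strain is not given in the sources at hand. Adult retinas were dissociated with Accutase, viable EGFP+ cells were sorted, each condition was stained with its own lipid-anchored oligonucleotide tag, and all 3 conditions were then pooled and sequenced as 1 Chromium run.

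No label links a tag to its condition, so the tags are called tag 1, tag 2 and tag 3. The barcodes called to them, over all cell classes, numbered 264, 316 and 41. The study gives the same numbers for its rods of Control, lamin A and Lbr after quality filters. By these numbers tag 1 would be Control, tag 2 lamin A and tag 3 Lbr, a link that the study does not state. Each tag was 1 pool of cells without replicates. No test was therefore possible, and no p-value is given. All intervals are 95% intervals that cover counting error only.

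Photoreceptors convert most of the glucose they take up to lactate even in the presence of oxygen, a habit known as aerobic glycolysis. In the retina, hexokinase 2 and lactate dehydrogenase A are known as enzymes of photoreceptors. Müller glia, the radial glia that span the tissue, are thought to take up part of the lactate that photoreceptors release. Lactate dehydrogenase is a tetramer of A and B subunits, and a tetramer rich in the A subunit (Ldha) favours formation of lactate, while the B subunit (Ldhb) is typical of tissues that consume it. Transcription of many of these genes is controlled by Hif1, which binds the letters ACGTG or GCGTG at the core of hypoxia response elements. Photoreceptor genes are often bound by Crx at the letters TAATCC.

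The 250 bases before the start of transcription are printed for Hk2, Nxnl1 and the pair of lactate dehydrogenase genes. Over summed UMIs these stood at least 4-fold apart between rods and bipolar-like barcodes, and they had a window free of annotated exons. They were chosen after their values were seen. Slc2a1 and Aldoc were also 4-fold apart over summed UMIs, but their windows overlapped an exon and are not printed. Of the Ldha starts only the first is shown. Sequences are from RefSeq (GRCm38.p6) and are written 5′ to 3′ on the strand of the gene. Capitals mark ACGTG or GCGTG on either strand, where CACGTG reads as ACGTG on both strands.
Hk2, chr6:82774455-82774704, minus strand: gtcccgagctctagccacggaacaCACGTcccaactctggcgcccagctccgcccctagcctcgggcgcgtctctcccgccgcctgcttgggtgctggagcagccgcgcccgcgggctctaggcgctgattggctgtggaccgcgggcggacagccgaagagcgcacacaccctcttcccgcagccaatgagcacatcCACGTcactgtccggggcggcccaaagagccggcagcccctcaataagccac
Ldha, chr7:46845554-46845803, plus strand: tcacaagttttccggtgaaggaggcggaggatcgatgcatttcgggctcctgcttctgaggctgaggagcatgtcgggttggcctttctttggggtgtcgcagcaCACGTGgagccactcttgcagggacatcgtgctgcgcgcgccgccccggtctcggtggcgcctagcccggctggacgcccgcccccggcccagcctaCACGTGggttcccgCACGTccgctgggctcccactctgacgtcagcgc
Ldhb, chr6:142507958-142508207, minus strand: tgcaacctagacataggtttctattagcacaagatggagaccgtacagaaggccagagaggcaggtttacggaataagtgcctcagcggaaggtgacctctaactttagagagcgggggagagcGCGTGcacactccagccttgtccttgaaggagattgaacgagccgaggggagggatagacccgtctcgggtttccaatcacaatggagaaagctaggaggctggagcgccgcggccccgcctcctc
Nxnl1, chr8:71566650-71566899, minus strand: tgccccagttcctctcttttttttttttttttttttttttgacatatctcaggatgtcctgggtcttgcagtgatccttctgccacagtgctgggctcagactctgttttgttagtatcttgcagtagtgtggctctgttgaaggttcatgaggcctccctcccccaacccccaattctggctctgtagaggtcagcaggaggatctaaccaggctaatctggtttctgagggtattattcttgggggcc
The Ldha window held 3 such stretches, of which 2 were CACGTG. The Hk2 window held 2 stretches, the Ldhb window held 1, and none occurred in the window of Nxnl1. Of all 32851 promoter windows of this length, 38.6% held ACGTG or GCGTG on either strand. TAATCC on either strand occurred in 6.25% of all windows and in none of the 4 printed ones. A RefSeq promoter was found for all 10 genes, with 17 windows in total. At least 1 window held ACGTG or GCGTG for 9 of the 10 genes, and TAATCC for 2 of them, Aldoc and the second Ldha start. Several genes had more than 1 window, some of them overlapping, whereas the shares of all promoters are per window. Counts per gene and shares per window are therefore not on the same scale, and no share per gene is given for all genes. Matches of letters describe the sequence and were not tested as binding sites.

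The expression matrix held 834 cell barcodes with 2487110 unique molecular identifiers (UMIs) and a median of 2395 UMIs per barcode, between 500 and 85822. The tag matrix held 645 of these barcodes, of which 264, 316 and 41 were called tag 1, tag 2 and tag 3. Although the labels give the cell type as rods, 158 of the 810 barcodes that remained after doublet removal took another name. Clusters were named from marker lists, with the glycolysis genes kept out of the clustering. Of the barcodes, 652 were rod-like, 90 Müller glia-like, 41 bipolar-like, 10 cone-like and 17 microglia-like.

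The rod-like class held all 13 rod markers. The bipolar-like class held 15 of 16 bipolar markers at a summed 40009 CPM (UMIs scaled to 1000000 UMIs of the class), with a median of 7813 UMIs per barcode and Gnat1, the rod transducin, at 0.436% of its rod level. Among bipolar-like barcodes 30 were in tag 2, 1 was in tag 3 and none was in tag 1.

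The Müller glia-like class was weaker. Glul, the glutamine synthetase of Müller cells, was seen in 64 of 90 barcodes and Rlbp1, a retinoid-binding protein, in 30. The class rested on 3 markers seen in at least 25% of its barcodes, its median was 1167 UMIs, and 55.4% of its UMIs were mitochondrial against 15.4% in rod-like barcodes. Of its barcodes 81 were not in the tag matrix, so that glia could not be compared between tags. Its summed rod markers stood at 10319 CPM against 7611 CPM for Müller markers, and Gnat1 stood at 10.8% of its rod level. Of the 90 barcodes, 21 held neither Glul nor Rlbp1, and these carried 3 of 6 markers of the retinal pigment epithelium at 9728 CPM, while the other 69 carried none. Glial values are therefore given beside the level that rod RNA would bring if it entered in proportion to Gnat1, and without the 21 barcodes where that mattered.

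In rod-like barcodes the 10 genes together took 0.915% of all UMIs, compared with 0.407% in Müller glia-like and 0.291% in bipolar-like barcodes. Relative to UMIs of nuclear genes alone, the shares were 1.08%, 0.911% and 0.376%. The median rod-like barcode held a UMI of 4 of the 10 genes, and 17 of 652 held none. Because the library reads transcript ends, a UMI counts a transcript once whatever its length, and levels of different genes are compared on that scale.

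**Figure D1:**
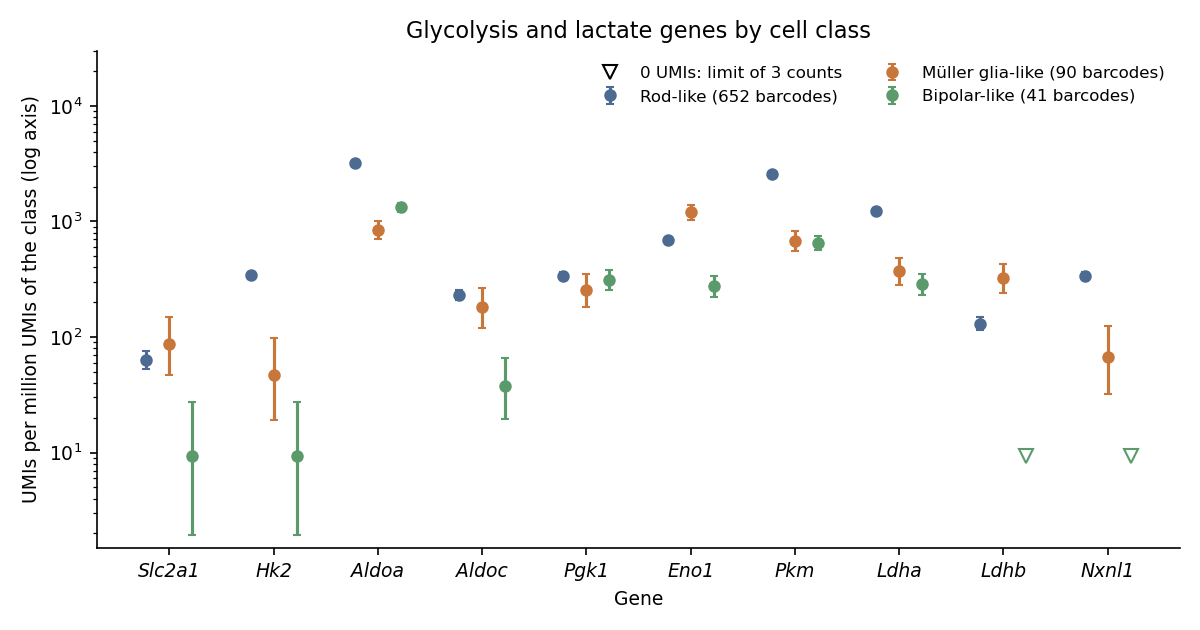
UMIs scaled to 1000000 UMIs of the class (CPM, log axis) for the 10 genes in rod-like, Müller glia-like and bipolar-like barcodes. Points are summed levels, bars are exact Poisson 95% intervals and open triangles are the limit of 3 counts for genes at 0. Aldoa, Pkm and Ldha were the leading genes in rods, Ldhb and Nxnl1 were at 0 in bipolar-like barcodes, and Eno1 and Ldhb stood highest in Müller glia-like barcodes.

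Aldoa led in rods at 3194 CPM (95% interval 3113 to 3278), followed by Pkm at 2590 CPM, Ldha at 1230 CPM and Eno1 at 686 CPM. Hk2 (341 CPM), Pgk1 (340 CPM) and Nxnl1 (340 CPM) came next and could not be told apart, since their intervals overlapped. Aldoc (233 CPM), Ldhb (130 CPM) and Slc2a1 (63.7 CPM) were lowest, and their intervals were separate. In Müller glia-like barcodes Eno1 led at 1202 CPM, above Aldoa and Pkm at 844 and 682 CPM, whose intervals overlapped. In bipolar-like barcodes the order was Aldoa (1325 CPM), Pkm (650 CPM), and then Pgk1, Ldha and Eno1 (311, 289 and 276 CPM), whose intervals overlapped.

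UMIs of a gene were not spread evenly over barcodes. Slc2a1 had 115 UMIs in 35 of 652 rods, and only 7 of these 35 held a lone UMI. The median rod with Aldoc held 4 UMIs of it although just 16.4% of rods held any. Intervals over UMIs, which treat each UMI as independent, are thus narrower than the spread over barcodes, and numbers of barcodes are given beside them.

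Slc2a1 (chr4:119108711-119137983, plus strand, mm10, GENCODE release 21) encodes the glucose transporter Glut1. It was the sparsest of the genes in rods, seen in 5.37% of barcodes with at most 12 UMIs. In Müller glia-like barcodes it had 13 UMIs in 4 of 90 barcodes (1, 2, 4 and 6 UMIs), or 87.8 CPM with an interval of 46.7 to 150, which held the rod level of 63.7 CPM. Rod RNA entering with Gnat1 would bring 6.87 CPM. The log2 ratio to rods was 0.51, and it turned to -0.97 at a coarser cluster resolution of 0.5. In bipolar-like barcodes it had 3 UMIs, each in a different barcode, or 9.42 CPM. The bipolar to rod ratio was 0.172, with a log2 ratio of -2.54 (interval -5.06 to -1.17). By barcode Slc2a1 was not lower, with 7.32% (interval 1.54 to 19.9) of bipolar-like barcodes and 5.37% (3.77 to 7.39) of rods. With Slc2a1 counted once per barcode the log2 ratio was -0.84. Fewer than 20 UMIs of Slc2a1 were expected in either comparison, so it was left out of the counts of changed genes.

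Hk2 (chr6:82725025-82774454, minus strand) encodes hexokinase 2, which traps glucose in the cell as its phosphate. It was seen in 207 of 652 rods with 616 UMIs, and 1 rod held 52 of them. In bipolar-like barcodes only 3 UMIs were counted, in 2 of 41 barcodes, although these barcodes were deeper than rods, with medians of 7813 and 2411 UMIs. The level was 31.1-fold lower there (log2 ratio -4.96, interval -7.46 to -3.62). In Müller glia-like barcodes it had 7 UMIs in 2 barcodes, or 47.3 CPM (interval 19.0 to 97.4). Rod RNA entering with Gnat1 would bring 36.8 CPM, which is inside that interval, so the glial value was not above background.

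Hexokinase 1 (Hk1), the common hexokinase of neurons, made a contrast with Hk2. Rods held 616 UMIs of Hk2 and 574 of Hk1, so that Hk2 made up 51.8% of the pair (exact Clopper-Pearson interval 48.9 to 54.6). Of the rods, 143 held Hk2 alone, 103 held Hk1 alone and 64 held both. In bipolar-like barcodes the pair stood at 3 to 38, and Hk2 made up 7.32% (interval 1.54 to 19.9). The 10 cone-like barcodes held 17 UMIs of Hk2 in 5 barcodes and none of Hk1. Hk2 was thus the larger part of the pair in cone-like barcodes and Hk1 in bipolar-like barcodes.

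**Figure D2:**
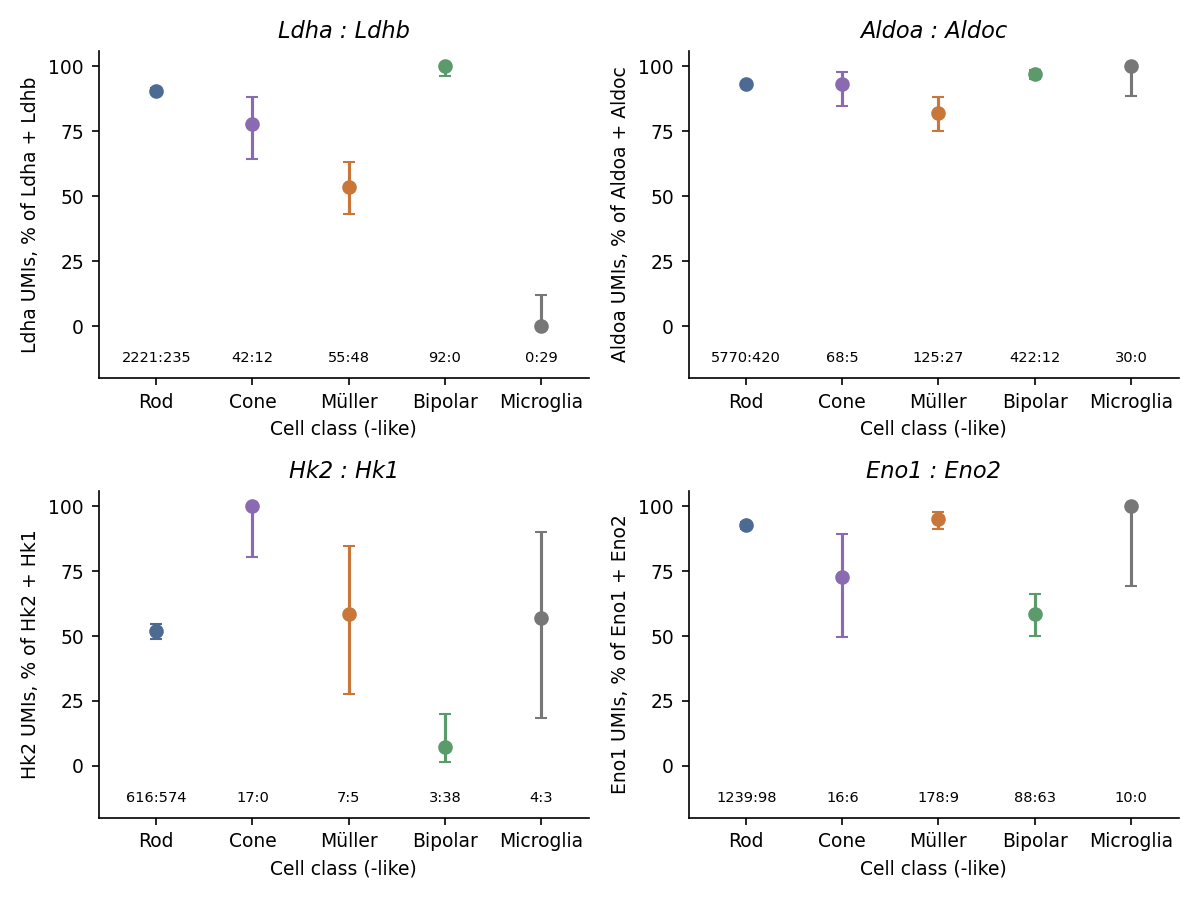
Share of UMIs (percent, with exact Clopper-Pearson 95% intervals) that fell on the first gene of 4 isoenzyme pairs in the 5 cell classes, with the UMIs of both genes printed under each point. Ldha took 90.4% of the lactate dehydrogenase pair in rods, 53.4% in Müller glia-like barcodes, 100% in bipolar-like barcodes and 0% in microglia-like barcodes.

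Aldoa (chr7:126795234-126800751, minus strand) and Aldoc (chr11:78322968-78327781, plus strand) encode aldolases A and C, which split fructose bisphosphate into triose phosphates. Aldoa was the most widely seen of the genes, in 562 of 652 rods with a median of 7 UMIs in those rods. It was 3.77-fold lower in Müller glia-like barcodes (844 CPM, log2 ratio -1.91, interval -2.19 to -1.66) and 2.41-fold lower in bipolar-like barcodes (1325 CPM, log2 ratio -1.27, interval -1.42 to -1.13). The glial level of 844 CPM compared with 345 CPM that would enter with Gnat1.

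Aldoc, the aldolase of astroglia and some neurons, was at 233 CPM in rods and 182 CPM in Müller glia-like barcodes. The log2 ratio of these was -0.33 (interval -0.97 to 0.21), so no difference was detectable at this depth. Its 27 glial UMIs lay in 9 barcodes, and all 9 were among the 69 with Glul or Rlbp1. Entry with Gnat1 would bring 25.1 CPM. Only 12 UMIs were found in bipolar-like barcodes (1, 1, 5 and 5 UMIs in 4 barcodes), which over UMIs was 5.93-fold lower than in rods. By barcode the shares were 9.76% (interval 2.72 to 23.1) and 16.4% of rods (13.6 to 19.5). With every barcode thinned to 500 UMIs they were 4.88% (0.596 to 16.5) and 8.59% (6.55 to 11.0). The intervals overlapped both times. Aldoa took 93.2% of the aldolase pair in rods (interval 92.6 to 93.8), 82.2% in Müller glia-like barcodes (75.2 to 88.0) and 97.2% in bipolar-like barcodes (95.2 to 98.6). The 3 intervals over UMIs were separate, and Aldoc had its largest share in the glial class. These intervals treat each UMI as independent. With each gene counted once per barcode, Aldoa took 84.0%, 76.3% and 89.5% in the same order.

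Pgk1 (chrX:106187100-106203699, plus strand) encodes phosphoglycerate kinase 1, which makes the first ATP of glycolysis. Rods stood at 340 CPM, Müller glia-like barcodes at 257 CPM (38 UMIs in 11 barcodes) and bipolar-like barcodes at 311 CPM (99 UMIs in 21 barcodes). The log2 ratios to rods were -0.39 (interval -0.92 to 0.07) and -0.12 (interval -0.45 to 0.18). The glial level compared with 36.7 CPM that would enter with Gnat1. Pgk1 stood at 822 CPM (interval 551 to 1181) in the 10 cone-like barcodes, with 29 UMIs in 3 of them, and at 14.8 CPM (1 UMI) in the 17 microglia-like ones.

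Eno1 (chr4:150236721-150248879, plus strand) encodes enolase 1, the enzyme that forms phosphoenolpyruvate. It was 1.76-fold higher in Müller glia-like barcodes than in rods (1202 against 686 CPM, log2 ratio 0.81, interval 0.57 to 1.04). Its 178 glial UMIs were spread widely, over 60 of 90 barcodes with at most 11 in a barcode, and entry with Gnat1 would bring 74.0 CPM. With every barcode thinned to 500 UMIs, Eno1 was seen in 45.6% of Müller glia-like barcodes (interval 35.0 to 56.4), 24.7% of rods (21.4 to 28.2) and 19.5% of bipolar-like barcodes (8.82 to 34.9). Without thinning the shares were 66.7%, 62.9% and 78.0%. The level was 1199 CPM in the 69 barcodes with Glul or Rlbp1 and 1216 CPM in the 21 without. With the coarser clusters the log2 ratio was 0.23.

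Eno1 could be split by counting with a near copy. Of the 341 words of 60 bases in the last 400 bases of its longest coding transcript, 80.4% also occurred in Eno1b, and no other of the 10 genes shared such a word with another gene of the matrix. Eno1b held 275 UMIs in rods, 36 in Müller glia-like and 15 in bipolar-like barcodes, and these may belong to Eno1. No gene of the matrix on the same strand overlapped any of the 10 genes.

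In bipolar-like barcodes Eno1 was 2.47-fold lower than in rods (276 CPM, log2 ratio -1.30, interval -1.64 to -1.0). Eno2, the neuronal enolase, moved the other way, with 63 UMIs in bipolar-like barcodes and 98 in rods (198 and 54.3 CPM, log2 ratio 1.87, interval 1.39 to 2.34). Eno1 made up 92.7% of the enolase pair in rods (interval 91.1 to 94.0) and 58.3% in bipolar-like barcodes (interval 50 to 66.2).

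Pkm (chr9:59656368-59679375, plus strand) encodes pyruvate kinase M. Its 2 splice forms, which differ by an internal exon, could not be separated from counts per gene. It was seen in 506 of 652 rods with a median of 7 UMIs. The level was 3.78-fold lower in Müller glia-like barcodes (682 CPM, of which 280 CPM would enter with Gnat1) and 3.98-fold lower in bipolar-like barcodes (650 CPM). The log2 ratios were -1.92 (interval -2.22 to -1.64) and -1.99 (interval -2.20 to -1.79).

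Ldha (chr7:46841475-46855627, plus strand) encodes the A subunit of lactate dehydrogenase and Ldhb (chr6:142490249-142507957, minus strand) the B subunit. Ldha was found in 399 of 652 rods. Among these the middle range was 2 to 7 UMIs and the highest rod held 75. Ldhb was found in 58 rods with a median of 3 and at most 15 UMIs. The pair stood at 2221 to 235 UMIs in rods, so that Ldha made up 90.4% (interval 89.2 to 91.6). By barcode, 356 rods held Ldha alone, 43 held both, 15 held Ldhb alone and 238 held neither.

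In bipolar-like barcodes Ldha had 92 UMIs in 17 of 41 barcodes, between 1 and 18 in each, and no UMI of Ldhb was found. Ldha was 4.24-fold lower than in rods (289 CPM, log2 ratio -2.08, interval -2.41 to -1.79). For Ldhb, 0 UMIs allow up to 9.42 CPM, which over UMIs places the level at least 13.8-fold lower than the 130 CPM of rods. That bound treats each UMI as independent, while the 235 rod UMIs lay in 58 barcodes. By barcode the intervals were 0 to 8.60% of bipolar-like barcodes and 6.82 to 11.3% of rods, which overlapped. With every barcode thinned to 500 UMIs they were 0 to 8.60% and 2.87 to 6.15%, which overlapped too. Counted over UMIs, Ldhb could make up at most 3.26% of the pair in bipolar-like barcodes.

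In Müller glia-like barcodes the balance was different. Ldha was at 371 CPM (55 UMIs in 16 barcodes), 3.28-fold lower than in rods, and 133 CPM of it would enter with Gnat1. Ldhb was at 324 CPM, 2.51-fold higher than in rods (log2 ratio 1.33, interval 0.84 to 1.77), and only 14.0 CPM would enter with Gnat1. Its 48 UMIs lay in 9 barcodes, with 1, 1, 4, 4, 6, 7, 7, 8 and 10 UMIs, and all 9 held Glul or Rlbp1. By barcode the shares were 10% (interval 4.68 to 18.1) of Müller glia-like barcodes and 8.90% (6.82 to 11.3) of rods, and with every barcode thinned to 500 UMIs they were 6.67% (2.49 to 13.9) and 4.29% (2.87 to 6.15), so the intervals overlapped both times. With Ldhb counted once per barcode the log2 ratio was 0.99. The rod level also differed between rods of unlike quality. In rods with 200 to 2500 genes and at most 18% mitochondrial UMIs, the filter of the study, Ldhb stood at 187 CPM (interval 160 to 217). Of these rods, 12.3% (8.98 to 16.3) held it. In rods over that mitochondrial limit Ldhb stood at 45.3 CPM (29.6 to 66.4), so the size of the glial ratio depends on the rods used. Ldha made up 53.4% of the glial pair (interval 43.3 to 63.3), below the interval of rods. The share was 49.5% (39.1 to 59.9) in the 69 barcodes with Glul or Rlbp1 and 64.0% when each gene was counted once per barcode.

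The pair was also described in the smaller classes. The 17 microglia-like barcodes held 29 UMIs of Ldhb in 4 barcodes (6, 6, 7 and 10 UMIs) and none of Ldha, which limits Ldha to 10.3% of the pair. The 10 cone-like barcodes held 42 UMIs of Ldha and 12 of Ldhb, with Ldha at 77.8% (interval 64.4 to 88.0). Lactate dehydrogenase transcripts were thus mostly those of Ldha in rods (90.4%), and only those of Ldha were seen in bipolar-like barcodes. Both genes were seen in Müller glia-like barcodes, and only Ldhb in the few positive microglia-like barcodes.

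Nxnl1 (chr8:71560555-71566601, minus strand) encodes rod-derived cone viability factor and, as a longer splice form, a thioredoxin-like protein. The short form is known to act on cones through basigin and Glut1 to raise glucose uptake. Counts per gene do not separate the forms. Nxnl1 was found in 156 of 652 rods with 615 UMIs, of which 1 rod held 96. No UMI was found in bipolar-like barcodes, which places the level at least 36.2-fold lower than in rods. In Müller glia-like barcodes it had 10 UMIs in 3 barcodes (1, 2 and 7 UMIs), or 67.5 CPM (interval 32.4 to 124), and 36.8 CPM would enter with Gnat1. The glial value was thus not above background. The 10 cone-like barcodes held 6 UMIs in 2 barcodes.

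A gene was counted as changed if it was at least 2-fold higher or lower, among genes for which both groups were expected to hold at least 20 UMIs. Between bipolar-like barcodes and rods 9 of the 10 genes could be counted, and 8 of them were lower and none higher, Pgk1 being the exception. Of all 2173 genes counted, 28.7% were lower and 12.7% higher. The median log2 ratio was -2.08 over the 9 genes and -0.32 over all genes. Between Müller glia-like barcodes and rods, 5 of 9 genes were lower (Hk2, Aldoa, Pkm, Ldha and Nxnl1) and 1 was higher (Ldhb). Over all 964 genes counted 57.9% were lower and 2.07% higher, so the number of lower genes was close to that of genes at large, and the median of all genes was -1.28.

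Because mitochondrial UMIs filled more of the Müller glia-like class, ratios were also taken over UMIs of nuclear genes. The median log2 ratio of all genes was then -0.26. On that scale 2 of 7 genes, Hk2 and Nxnl1, were lower (background 35.0% of 503 genes) and 1, Eno1, was higher (background 14.5%). Ldhb and Aldoc had fewer than 20 expected nuclear UMIs and were not among the 7. Eno1 stood at a log2 ratio of 1.74 (interval 1.5 to 1.96) and Ldhb at 2.25 (1.76 to 2.69), while Ldha stood at -0.79 (-1.22 to -0.42). Aldoc turned from -0.33 to 0.60 (interval -0.05 to 1.13) and Pgk1 from -0.39 to 0.53 (interval 0.00 to 0.99).

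Of 59 further genes of glycolysis, lactate and pyruvate transport and NADH shuttles, 22 could be counted between bipolar-like barcodes and rods. Among these, 3 were higher, namely Eno2, the phosphofructokinase Pfkp (log2 ratio 1.41, interval 1.01 to 1.80) and the triose phosphate isomerase Tpi1 (1.21, interval 1.01 to 1.40). Another 4 were lower, and 2 of these had no UMI in bipolar-like barcodes. Nxnl2, the paralogue of Nxnl1, was at least 80.0-fold lower, and Slc16a1, which encodes the lactate transporter Mct1, was at least 11.5-fold lower. Bpgm, which makes bisphosphoglycerate, stood at -1.77 (interval -3.21 to -0.79) and Hk1 at -1.40 (-1.93 to -0.94). The median over the 22 genes was -0.50. Of all 2173 genes counted, 12.7% were higher and 28.7% lower, with a median of -0.32.

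Of the same list, 13 genes could be counted in Müller glia-like barcodes, and 10 were lower and none higher, with a median log2 ratio of -1.42. Of all genes counted, 57.9% were lower and 2.07% higher, with a median of -1.28. Over nuclear UMIs 4 of 12 were lower and 1 was higher, against 35.0% and 14.5% of all genes. Among the 10 lower genes were Hk1 (log2 ratio -3.10), Nxnl2 (-2.94), the malate dehydrogenases Mdh2 (-2.77) and Mdh1 (-1.42), the phosphofructokinase Pfkl (-2.56), the transcription factor Hif1a (-2.40), the aspartate aminotransferase Got1 (-1.54), Gapdh (-1.28), Pgam1 (-1.16) and Gpi1 (-1.09). For Hk1, Mdh2, Pfkl, Nxnl2, Got1 and Hif1a the glial UMIs numbered 16 or fewer. Rod RNA entering with Gnat1 would bring 34.3 CPM of Hk1 and 19.4 CPM of Pfkl. The glial levels were 33.8 CPM (interval 11.0 to 78.8) and 27.0 CPM (7.36 to 69.2), so neither was above background. Such entry would bring 81.3, 63.5, 37.4 and 28.7 CPM of Nxnl2, Hif1a, Mdh2 and Got1 (14, 16, 7 and 13 glial UMIs). Gapdh, Pgam1 and Gpi1 stood at 1209, 615 and 223 CPM, and 318, 149 and 51.8 CPM of these would enter. Tpi1 stood at a log2 ratio of 0.23 (interval -0.15 to 0.57). Bsg, which encodes basigin, the partner of the lactate transporter, stood at a log2 ratio of -0.67 (interval -1.04 to -0.33).

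Variation within rods was described over the 5 rod-like clusters, which were formed without these genes. Aldoa ranged from 2525 to 3663 CPM, Pkm from 2045 to 2929 CPM, Eno1 from 557 to 735 CPM and Ldha from 895 to 1477 CPM. Hk2 ranged from 223 to 463 CPM, Pgk1 from 223 to 406 CPM and Aldoc from 180 to 308 CPM. Nxnl1 ranged from 192 to 592 CPM, Ldhb from 48.9 to 223 CPM and Slc2a1 from 26.2 to 98.0 CPM. Ldha and Ldhb were both lowest in the cluster with the highest mitochondrial share (24.6%) and the lowest median depth (1336 UMIs). The part of mitochondrial share and depth in this was not tested.

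Patterns over the 5 named classes were compared by the distance between log2 CPM profiles centred on their means, over 3002 genes. Nearest to Ldha were Pcbp4 (distance 0.88), Cpe (0.91) and Unc119 (1.02), each high in rods and cones and at or near 0 in microglia-like barcodes. Nearest to Aldoc were Mfge8 (0.79), Ppa2 (1.02) and Tprgl (1.18). These are descriptions over 5 classes of 1 library.

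To compare the tags, rod-like barcodes that passed the filter of the study (200 to 2500 genes and at most 18% mitochondrial UMIs) were used. They numbered 182, 128 and 20 in tag 1, tag 2 and tag 3, with 542490, 331067 and 54684 UMIs. The 10 genes took 0.971%, 1.02% and 1.02% of their UMIs. Gnat1 stood at 5043, 6253 and 4462 CPM in the same order, and the mitochondrial share at 10.5%, 14.0% and 11.5%. Their part in the ratios was not tested.

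**Figure D3:**
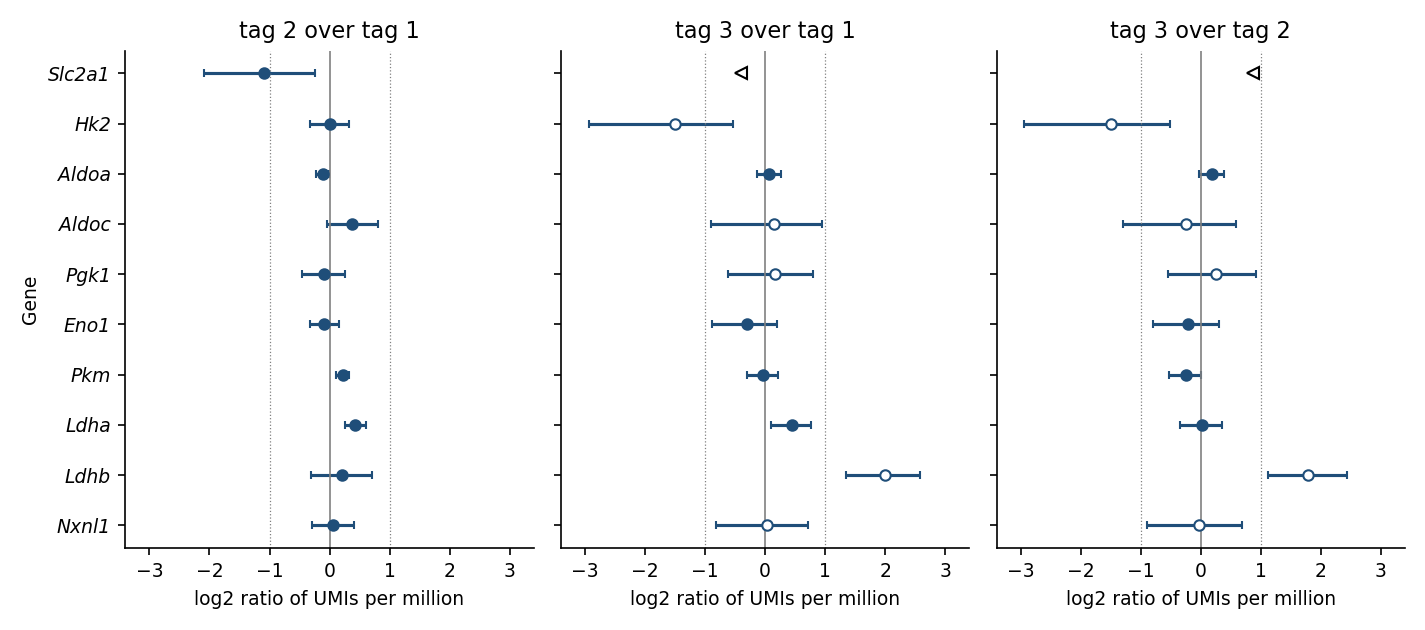
Log2 ratios of CPM between rods of the 3 tags for the 10 genes, with exact conditional 95% intervals. Filled points stand for genes with 20 or more expected UMIs in each of the tags, open points for genes with fewer, open triangles mark the upper bound where the first tag had no UMI, and dotted lines mark 2-fold. Most points lie within the dotted lines. Slc2a1 was lower in tag 2 than in tag 1. In tag 3, Ldhb was higher and Hk2 lower than in both other tags, each as an open point.

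Between tag 2 and tag 1 all 10 genes could be counted, and 1 of them, Slc2a1, was past 2-fold. Of all 2159 genes 12.7% were past 2-fold in either direction. Slc2a1 had 50 UMIs in 14 of 182 rods of tag 1 and 14 UMIs in 6 of 128 rods of tag 2, giving a log2 ratio of -1.09 (interval -2.09 to -0.25). The rods holding it had 1 to 10 UMIs in tag 1 and 1 to 4 UMIs in tag 2. By barcode the shares were 7.69% (interval 4.27 to 12.6) and 4.69% (1.74 to 9.92), which overlapped. In the rods over the mitochondrial limit, 40 in tag 1 and 144 in tag 2, the log2 ratio was 0.24.

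Ldha was 1.34-fold higher in tag 2 than in tag 1 (1522 against 1136 CPM, log2 ratio 0.42, interval 0.25 to 0.60). It was seen in the same share of rods, 68.0% and 67.6%. The ratio was 0.20 without the filter and -0.54 in rods over the mitochondrial limit, so its direction depended on which rods were used. Pkm was 1.16-fold higher in tag 2 (2951 against 2542 CPM, log2 ratio 0.22, interval 0.10 to 0.33). Aldoa stood at 3797 and 3513 CPM (log2 ratio -0.11, interval -0.22 to -0.01). The intervals of Hk2, Aldoc, Pgk1, Eno1, Ldhb and Nxnl1 included 0, and Hk2 was at 387 CPM in both tags.

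Tag 3 held only 20 rods, so 4 of the 10 genes could be counted, Aldoa, Eno1, Pkm and Ldha. None was past 2-fold against tag 1 or tag 2, where 11.0% of 373 and 12% of 359 genes were. Ldha was at 1536 CPM in tag 3, close to tag 2, with log2 ratios of 0.44 (interval 0.09 to 0.77) to tag 1 and 0.02 (interval -0.34 to 0.35) to tag 2. Aldoa was at 3987 CPM, Pkm at 2469 CPM and Eno1 at 603 CPM, and each interval against tag 1 included 0.

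Ldhb had fewer than 20 expected UMIs in tag 3 and was left out of the counts. In tag 3 its 33 UMIs lay in 7 of 20 rods, with 1, 2, 2, 3, 4, 8 and 13 UMIs. In tag 1 it had 83 UMIs in 20 of 182 rods and in tag 2 it had 58 UMIs in 14 of 128 rods. The levels were 603, 153 and 175 CPM in tag 3, tag 1 and tag 2, and the log2 ratios were 1.99 (interval 1.35 to 2.58) to tag 1 and 1.79 (interval 1.12 to 2.43) to tag 2. By barcode the shares were 35.0% (interval 15.4 to 59.2), 11.0% (6.84 to 16.5) and 10.9% (6.11 to 17.7), so that the intervals overlapped at their ends. Without the top rod of each tag the log2 ratio to tag 1 was 1.79, and in rods over the mitochondrial limit, only 11 in tag 3, it was -0.16.

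**Figure D4:**
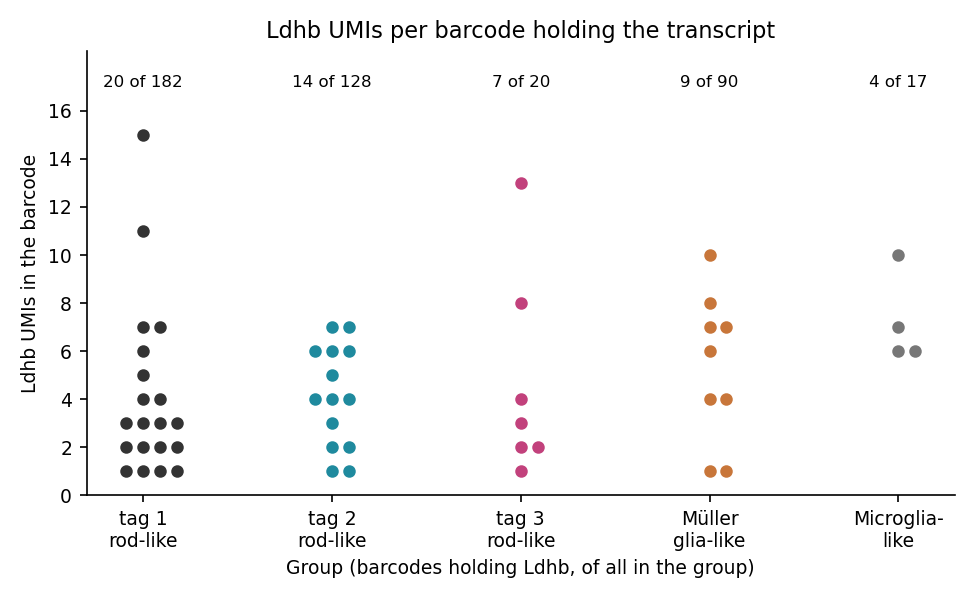
UMIs of Ldhb (vertical axis) in each barcode that held the transcript, for filtered rods of the 3 tags and for Müller glia-like and microglia-like barcodes, with the number of holding barcodes over all barcodes printed on top. In tag 3, 7 of 20 rods held Ldhb, against 20 of 182 and 14 of 128 in tag 1 and tag 2, while the UMIs per holding rod covered a similar range in tag 1 and tag 3.

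The share of Ldha in the pair followed from these counts. In tag 1 it was 88.1% (interval 85.5 to 90.4) and in tag 2 it was 89.7% (86.9 to 92.1), while tag 3 stood at 71.8% (62.7 to 79.7). Of the 20 rods of tag 3, 11 held Ldha alone, 6 held both, 1 held Ldhb alone and 2 held neither. Summed Müller markers stood at 1006 CPM in these rods, against 841 and 604 CPM in tag 1 and tag 2, and 2 of the 15 markers were seen. Cone markers stood at 1335 CPM against 553 and 63.4 CPM. The part of both in the Ldhb value was not tested.

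Hk2 had 7 UMIs in tag 3, all in 3 of its 20 rods (1, 3 and 3 UMIs). Its log2 ratio was -1.5 to tag 1 (interval -2.93 to -0.53) and -1.5 to tag 2 (-2.94 to -0.51). By barcode Hk2 was in 15% of tag 3 rods (interval 3.21 to 37.9). The shares were 38.5% (31.4 to 45.9) in tag 1 and 37.5% (29.1 to 46.5) in tag 2, and both intervals overlapped that of tag 3. Slc2a1 had no UMI in tag 3, which allows up to 54.9 CPM and places it at least 1.68-fold lower than in tag 1, while no difference from tag 2 was detectable at this depth. Aldoc, Pgk1 and Nxnl1 had 12, 20 and 17 UMIs in tag 3, and their intervals against both other tags included 0.

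Of the wider list, 21 genes could be counted between tag 2 and tag 1, and 3 were past 2-fold, against 12.7% of all genes. Bpgm was higher in tag 2 (log2 ratio 1.31, interval 0.61 to 2.04). Slc25a11, the mitochondrial carrier for oxoglutarate and malate (-1.44, interval -2.43 to -0.63), and Tpi1 (-1.18, interval -1.53 to -0.85) were lower. Between tag 3 and tag 1 none of 10 genes was past 2-fold, against 11.0% of all genes, and between tag 3 and tag 2 none of 9 was, against 12%.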

How the data were processed

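Single-cell RNA and sample tags were measured in 1 pool of sorted retinal cells. The deposited expression and tag matrices hold UMI and tag counts per barcode, not normalized. Per the submitters' processing notes, the authors aligned reads to mm10 with Cell Ranger 6.1.2 and used Scanpy 1.9.1, while the deposited matrix header names version 3.1.0. For counting, the annotation is not given in the sources at hand, and 99.6% of gene identifiers were in GENCODE release 21. Tag calls are those of the authors.

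All 834 barcodes were clustered with Scanpy 1.11.5 (2000 variable genes, 30 principal components, 15 neighbours, Leiden resolution 1), because the Müller glia-like barcodes exceed the mitochondrial limit of the study. Each cluster was named for the class that had the most markers in the 10 genes leading it, with ties settled by the share of markers seen in at least 25% of barcodes, and 3 such markers were required. These names are rebuilt here, so the study's own names may differ. Doublets called by the tags (22) or by Scrublet at an expected rate of 6% (2 on all barcodes) were left out of classes, 24 in all. For tags, rods passed the filter of the study and 28 further Scrublet calls were removed. UMIs were summed per gene and group, and log2 ratios had 0.5 UMIs added to both sums. Intervals are exact Poisson, Clopper-Pearson or conditional. For a gene at 0 UMIs the limit is 3 counts over the group. Ratio and interval code was tested on simulated data. Genes described are the 10 listed ones, those of the wider list at least 2-fold apart (at most 10 per comparison), Hk1 and Eno2, the 3 genes most like Ldha and Aldoc, and Gnat1 as background. A further background gene is not reported here. The genes and lists were chosen with earlier results of these data known. Alternatives covered the unit of counting, the denominator, clustering, filters, tag calls, doublets and pseudocount. Protein sequences were not used here.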

Additional observations from a re-analysis of the deposited data

Results flagged for a closer look

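Near copies of 2 of the enzymes, outside the comparisons above, also held UMIs. Eno1b, whose transcript end is nearly that of Eno1, held 335 UMIs in 205 of all 834 barcodes. Aldoart1 and Aldoart2, retrogenes of Aldoa, held 36 UMIs in 33 barcodes and 10 UMIs in 10 barcodes. All 3 lay above the limit of 3 counts that a gene at 0 would have. The last 400 bases of the longest coding Aldoa transcript shared no word of 60 bases with another gene of the matrix.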

How the results depend on the processing

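Over all alternatives, 83 of 90 bipolar values, 71 of 90 Müller glia-like values and 83 of 100, 88 of 100 and 89 of 100 values of the 3 tag comparisons moved by less than the counting interval. The sign changed for 70 of the 480 values, most of them in the tag comparisons. Among genes that could be counted and were past 2-fold, this was 1 value, Slc2a1 between tag 2 and tag 1, at 0.24 in rods over the mitochondrial limit. Ldhb between tag 3 and tag 1, with too few UMIs to be counted, stood at -0.16 in those rods, and Ldha between tag 2 and tag 1, under 2-fold, at -0.54. Rods over the limit and Müller glia-like barcodes with Glul or Rlbp1 were alternatives chosen after seeing the data. With each gene counted once per barcode, 2 of the 10 genes were 2-fold apart in Müller glia-like barcodes in place of 6. The log2 ratios of Aldoa, Pkm, Ldha and Ldhb to rods were then -0.64, -0.88, -0.99 and 0.99. For tag 2 and tag 1 the number fell to 0 with each gene counted once per barcode, with the mean of barcode CPM, without the filter, with a strict tag call and with Scrublet calls kept. In rods over the limit, only 11 of them in tag 3, it was 2 for tag 3 and tag 1, and 1 for tag 3 and tag 2. No share over all genes is given for those rods or for the other alternatives of this paragraph. These counts therefore cannot be set against genes at large. Ldha made up 87.3% of its pair in rods and 64.0% in Müller glia-like barcodes with each gene counted once per barcode, and 87.4% in filtered rods. Aldoa made up 84.0% in rods and 89.5% in bipolar-like barcodes with each gene counted once, and 94.2% in filtered rods.

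For the wider list in Müller glia-like barcodes, 16 genes were apart with at least 10 expected UMIs, 6 with at least 50, and 6 with each gene counted once. In bipolar-like barcodes 3 were apart with at least 50. For tag 2 and tag 1 the number was 1 with at least 50 and 1 with each gene counted once. With at least 10 it was 1 for tag 3 and tag 1 and 1 for tag 3 and tag 2. Here the number of genes tested changes with the minimum, and elsewhere the cause was not tested. No share over all genes is given at these settings, so these counts cannot be set against genes at large. No paired analysis was possible because the series holds 1 pool without replicate numbers. The 20 rods of tag 3 limit every value of that tag.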
